A study of Mus musculus with 6 samples.

Results

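The genes described are 10 markers of Kupffer cells and other macrophages: Clec4f, Timd4, Vsig4, Cd5l, Marco, Cd163, Mrc1, Csf1r, Cd68 and Gpnmb. They were taken from the arrays by gene name with every non-control probe that carries one of these names. This gave 13 probes of 10 genes, out of 41174 probes with 27376 gene names. Csf1r had 3 probes, Gpnmb 2 and each of the other 8 genes 1.

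The livers came from male BALB/c mice that were 6 weeks old when exposure began. A group of 3 mice drank sterile water with 100 µg/L microcystin-LR (MC-LR), a cyclic peptide toxin of cyanobacteria, for 12 months, and a control group of 3 drank sterile water over the same time. MC-LR is taken up by hepatocytes through organic anion transporters and inhibits protein phosphatases. RNA of every liver was read on a separate single-colour Agilent array. The question is how macrophage transcripts differed between these 2 groups.

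Kupffer cells are the resident macrophages of the liver. They sit in the sinusoids, take up particles, bacteria and old red cells from portal blood, and depend on signalling through the receptor Csf1r. Recruited monocytes can also become liver macrophages and gain Kupffer markers with time, with Clec4f and Timd4 among the markers used to tell resident cells from newcomers. All values below come from whole liver, in which fewer cells of a type and less RNA per cell cannot be told apart.

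All levels are log2 normalized signals, and a difference of 1 is a doubling. A value can be compared between arrays for the same probe, but not between probes. The share of spots well above background was 64.9% to 73.7%, and 0 spots were saturated. The hepatocyte gene Alb lay at 18.01 to 18.22 on the 6 arrays. The pan-leukocyte gene Ptprc stood at 12.03 on the control 3 array and at 10.78 to 11.02 on the other 5. Adgre1, which encodes the macrophage antigen F4/80, was at 11.68, 11.81 and 13.12 in control 1, 2 and 3 and at 11.14, 11.52 and 11.88 in MC-LR 1, 2 and 3. The control 3 array thus stood apart for leukocyte genes. It was also the only control array on slide 2, which held the 3 MC-LR arrays, while control 1 and 2 were on slide 1. With slide as a block the comparison is in effect MC-LR against control 3. Without control 3, slide and group cannot be told apart. Both values are therefore given for each marker and gene list, and for some single genes of the lists. For Adgre1 the difference was -1.60 with slide as a block and -0.23 without control 3.

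None of the 10 genes passed the adjusted threshold of 0.05 (limma, Benjamini-Hochberg over 28500 probes). All 10 were measured by at least 1 probe that was well above background on all 6 arrays, and 12 of the 13 probes were tested. Of these, 0 were called, against 3 of 28500 probes over the whole array (0.0105%), all 3 of them higher with MC-LR. At an unadjusted p under 0.05 the count was 1 of 12, that of Gpnmb, against 12.9% of all probes, of which 7.89% were higher and 5.03% lower. The MC-LR mean was below the control mean for 10 of the 12 probes, against 49.6% of all probes tested, with a median difference of -0.17 against 0.00 over all probes. These 10 probes covered 8 genes, and their differences ran from -0.46 for Timd4 to -0.02 for Cd68. The other two were Gpnmb and Cd163.

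**Figure D1:**
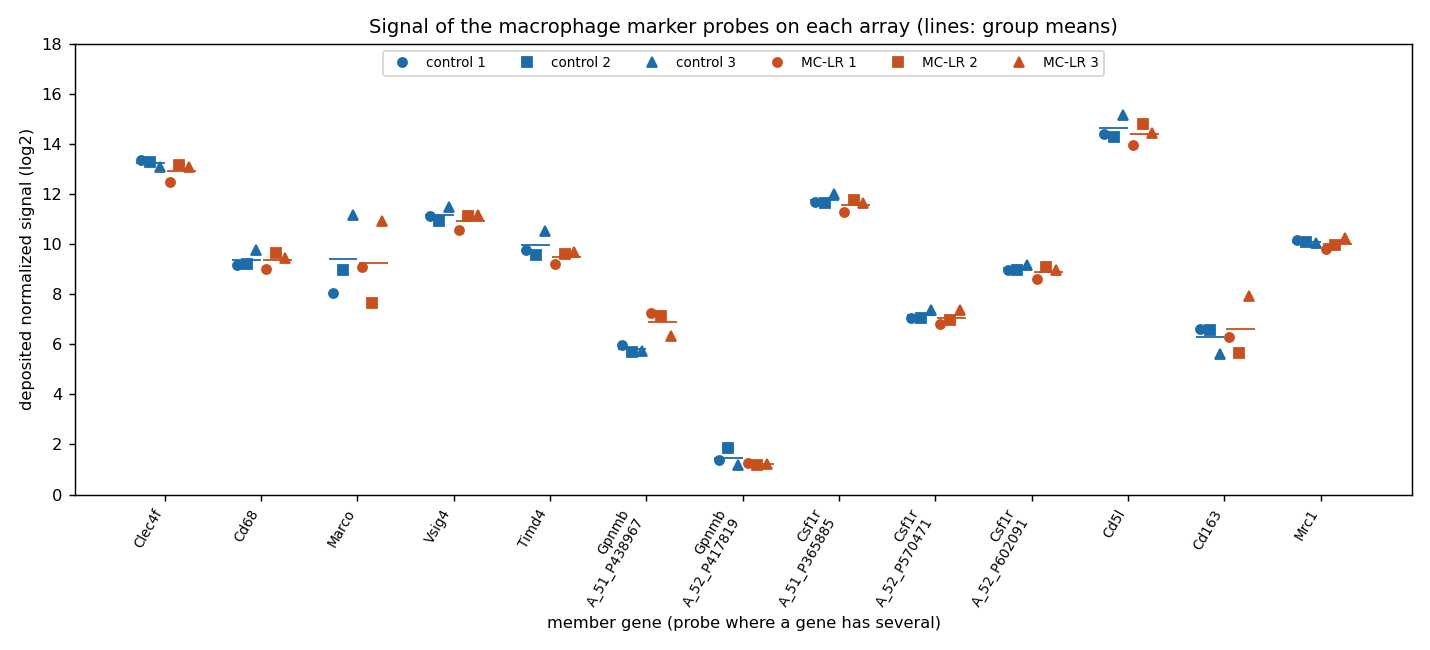
Log2 normalized signal (vertical axis) of the 13 probes of the 10 genes (horizontal axis) on each array, with controls in blue and MC-LR mice in orange, a symbol for each mouse and a line at each group mean. The 3 MC-LR points lie above the 3 control points for the first Gpnmb probe, at 6.34 to 7.27 against 5.70 to 5.99, and Marco has the widest spread in both groups.

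Clec4f encodes a C-type lectin of the Kupffer cell surface that binds galactose-bearing glycans, and in mouse liver it is the most restricted of these markers. Its probe (A_51_P271865, chr6:83595281-83595339, mm9) read 13.35, 13.27 and 13.09 in control 1, 2 and 3 and 12.50, 13.15 and 13.10 in MC-LR 1, 2 and 3. MC-LR 1 was low, and the other two MC-LR mice lay at or above control 3. The means were 13.23 ± 0.13 (SD, n = 3) in controls and 12.92 ± 0.36 (SD, n = 3) with MC-LR, a difference of -0.32 ± 0.20 (SE). The 95% interval was -0.80 to 0.16, so that a fall to 0.576 of the control level and a rise of 1.12-fold both lie inside it (adjusted p = 0.534). Without MC-LR 1 it was -0.11 and without control 3 -0.39, and the slide block gave -0.17.

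Timd4 encodes a receptor for phosphatidylserine that tethers dying cells and marks long-lived resident macrophages. It read 9.77, 9.58 and 10.54 in the controls and 9.21, 9.60 and 9.69 in the MC-LR mice. Its difference of -0.46 ± 0.28 was the lowest of the 12 probes, at 0.725 of the control level, with an interval of -1.14 to 0.21 (adjusted p = 0.524). Control 3 was 0.87 above the mean of the other two controls. Leaving that array out gave -0.18, and the slide block gave -1.04 (adjusted p = 0.183).

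Vsig4 encodes the complement receptor CRIg, with which Kupffer cells capture opsonised bacteria from the blood. Its levels were 11.14, 10.93 and 11.48 in the controls and 10.55, 11.11 and 11.17 in the MC-LR mice. The groups overlapped, with control 3 highest and MC-LR 1 lowest. The difference was -0.24 ± 0.22, with an interval of -0.78 to 0.31 (adjusted p = 0.683). It was -0.09 without control 3, -0.04 without MC-LR 1 and -0.54 with slide as a block.

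Cd5l encodes AIM, a protein that macrophages secrete into the blood. Its signal was 14.41, 14.30 and 15.17 in the controls and 13.97, 14.81 and 14.43 in the MC-LR mice. Control 3 was again the highest array and MC-LR 1 the lowest. The difference was -0.22 ± 0.31, with an interval of -0.97 to 0.52 (adjusted p = 0.787), and it was 0.05 without control 3 and -0.77 with slide as a block.

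Marco, a class A scavenger receptor for bacteria and particles, varied most between mice. It read 8.06, 8.98 and 11.18 in the controls and 9.08, 7.67 and 10.93 in the MC-LR mice. Each group held 1 mouse with a high level, control 3 and MC-LR 3, and the remaining 4 mice lay between 7.67 and 9.08. The 6 arrays spanned 3.52, a range that 0.418% of all tested probes exceeded. Within-group SDs were 1.61 and 1.63, far above the difference of -0.18 ± 1.07, whose interval ran from -2.78 to 2.41 (adjusted p = 0.959). With this spread, neither a fall to 0.146 of the control level nor a 5.32-fold rise lay outside the interval. The difference was 0.71 without control 3 and -1.96 with slide as a block.

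Cd163, the receptor that clears haptoglobin-bound haemoglobin, read 6.63, 6.58 and 5.63 in the controls and 6.29, 5.66 and 7.94 in the MC-LR mice. MC-LR 3 was the highest array and control 3 the lowest, so control 3 did not have a high level of every marker. The range of 2.31 was exceeded by 2.40% of tested probes. The difference was 0.35 ± 0.61, with an interval of -1.14 to 1.84 (adjusted p = 0.839), and it was -0.31 without MC-LR 3. Without control 3 it was 0.02, and with slide as a block 1.00.

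Mrc1, the mannose receptor CD206, is made by liver sinusoidal endothelium as well as by macrophages. It had the narrowest range of the 12 probes, with 10.15, 10.08 and 10.06 in the controls and 9.80, 9.96 and 10.25 in the MC-LR mice. The MC-LR mice lay on both sides of the controls. The difference was -0.10 ± 0.14, with an interval of -0.43 to 0.24 (adjusted p = 0.795). For this gene the interval reached no lower than 0.744 of the control level and no higher than 1.18-fold. Leaving out control 3 gave -0.11, and the slide block gave -0.06.

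Csf1r is the receptor for the growth factors CSF1 and IL-34, on which tissue macrophages depend for survival. Its 3 probes start at base 483, 2871 and 3465 of the transcript in the array's design. The brightest (A_51_P365885) read 11.70, 11.66 and 11.99 in the controls and 11.27, 11.77 and 11.63 in the MC-LR mice, a difference of -0.23 ± 0.17 (adjusted p = 0.599). The probe nearest the start of the transcript (A_52_P570471) gave -0.11 ± 0.18 (adjusted p = 0.821). The probe between them (A_52_P602091) gave -0.15 ± 0.15 (adjusted p = 0.694). All 3 had MC-LR 1 as the lowest array, and the correlation between pairs of them over the 6 arrays was 0.67 to 0.98. In the same order, the 3 differences were -0.09, 0.01 and -0.02 without MC-LR 1, and -0.13, -0.01 and -0.09 without control 3. With slide as a block they were -0.44, -0.32 and -0.28.

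Cd68 encodes a lysosomal membrane protein of macrophages and many monocytes. It read 9.17, 9.21 and 9.76 in the controls and 8.99, 9.65 and 9.43 in the MC-LR mice. The means were 9.38 ± 0.33 (SD, n = 3) and 9.36 ± 0.34 (SD, n = 3). The difference of -0.02 ± 0.24 was the closest to 0 among the 12 probes, with an interval of -0.59 to 0.55 (adjusted p = 0.983). It was 0.17 without control 3, 0.17 without MC-LR 1 and -0.40 with slide as a block, so its sign depended on single mice.

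Gpnmb, a transmembrane glycoprotein of the lysosome that lipid-laden and recruited macrophages express strongly, was the marker whose groups did not overlap. It is also expressed by other cell types, among them melanocytes and osteoblasts. The files hold a pair of 60-base probes for it at different places of the transcript; they start at base 2002 and 2728. The positions are those in the file headers' build, mm9: chr6:49006386-49006445 for the first (A_51_P438967) and chr6:49007112-49007171 for the second (A_52_P417819).

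The first Gpnmb probe read 5.99, 5.70 and 5.74 in the controls and 7.27, 7.13 and 6.34 in the MC-LR mice. Every MC-LR mouse was above every control, as for 20.3% of all tested probes in either direction and 11.7% with MC-LR higher. The means were 5.81 ± 0.16 (SD, n = 3) and 6.91 ± 0.50 (SD, n = 3). The difference was 1.10 ± 0.26, or 2.14-fold with a 95% interval of 1.39 to 3.31. An absolute difference above 1 occurred in 2.18% of tested probes. It had an unadjusted p of 0.00498 but missed the threshold after adjustment over all probes (adjusted p = 0.248, limma). Over 20 other fits the adjusted p ran from 0.0407 with array weights to 0.66 without MC-LR 1. The fit with array weights called 1203 of 28500 probes over the whole array, against 3 in the main fit. The difference ran from 0.57 with normexp background correction to 1.38 without MC-LR 3.

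The difference for Gpnmb was 1.06 without control 3, 0.92 without MC-LR 1 and 1.17 with slide as a block, all in the same direction. The second Gpnmb probe was well above background on 0 of 6 arrays. It read 1.36, 1.85 and 1.19 in the controls and 1.27, 1.19 and 1.20 in the MC-LR mice, so the difference at the first probe has no second measurement in these data.

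**Figure D2:**
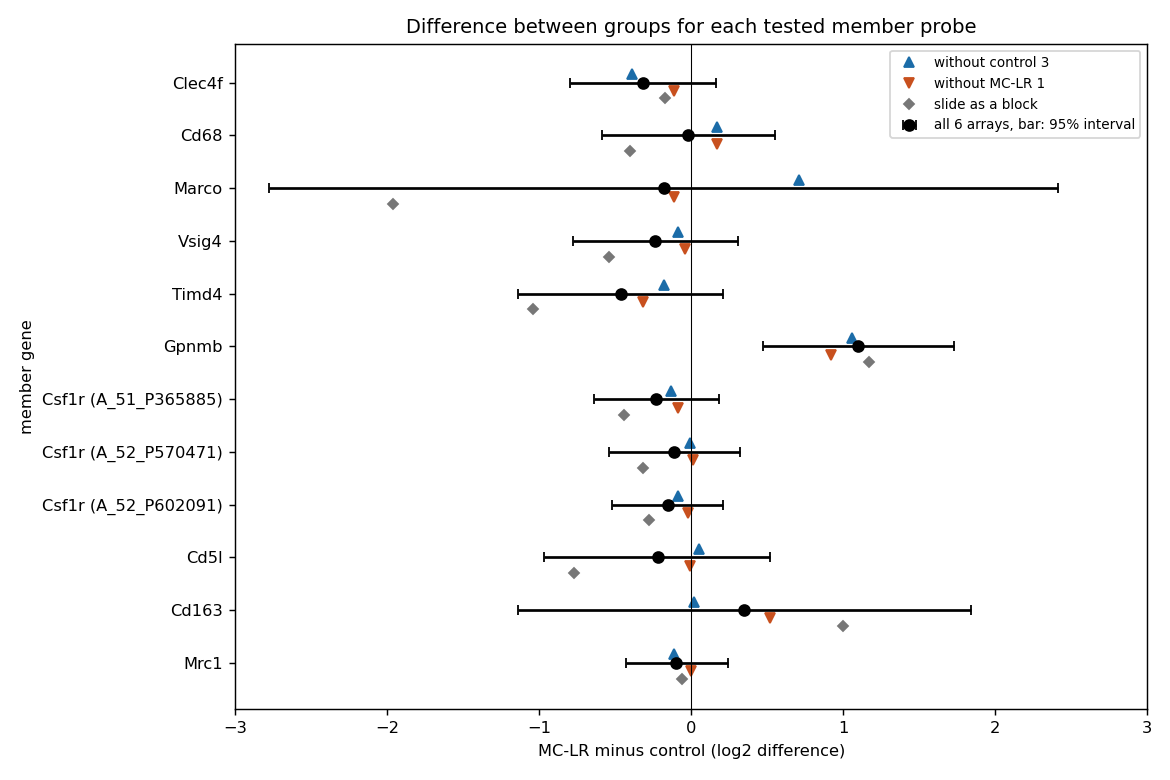
Log2 difference, MC-LR minus control (horizontal axis), for the 12 tested probes, with a black point and its 95% interval for all 6 arrays and symbols for the fits without control 3, without MC-LR 1 and with slide as a block. The Gpnmb interval, 0.47 to 1.73, lies above 0, the other 11 intervals span 0, and the Marco interval is the widest.

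Across the 12 probes, the same mice were usually the extreme ones. MC-LR 1 had the lowest level for 9 probes of 7 genes, against 15.0% of all tested probes. Control 3 had the highest level for 8 probes of 6 genes, against 19.9% of all tested probes. The median deviation from each probe's mean was 0.29 for control 3 and -0.37 for MC-LR 1, and it lay between -0.08 and 0.06 for the other 4 arrays. The number of probes with a lower MC-LR mean was 7 of 12 without control 3 and 7 of 12 without MC-LR 1. It was 3 of 12 without both, where the median difference was 0.11. These 2 arrays were picked after the values were seen, as the highest and the lowest. An upward shift without both therefore follows largely from the choice. This limit also bears on the gene lists read without both arrays. With slide as a block 10 of 12 were below 0, with a median of -0.36. The count of lower means thus fell when either of these mice was left out.

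The markers did not vary as one block across the 6 livers. Cd68, Vsig4, Timd4, Csf1r and Cd5l varied together from array to array, with Pearson r from 0.74 to 0.95 over their 10 pairs. These genes were grouped by the same values, so their high r is not a separate result. Vsig4 with Csf1r and Cd68 with Cd5l gave the highest values, 0.95 each. Clec4f followed this group less closely, with r of 0.43 with Cd5l and Timd4, 0.36 with Cd68 and 0.71 with Csf1r, and its highest value was 0.75 with Mrc1. Gpnmb ran against the others, with r of -0.69 to -0.15 with the other 9 genes. Marco had r of -0.40 to 0.56. These correlations describe 6 arrays that share both groups and the 2 extreme mice, and they carry no test.

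**Figure D3:**
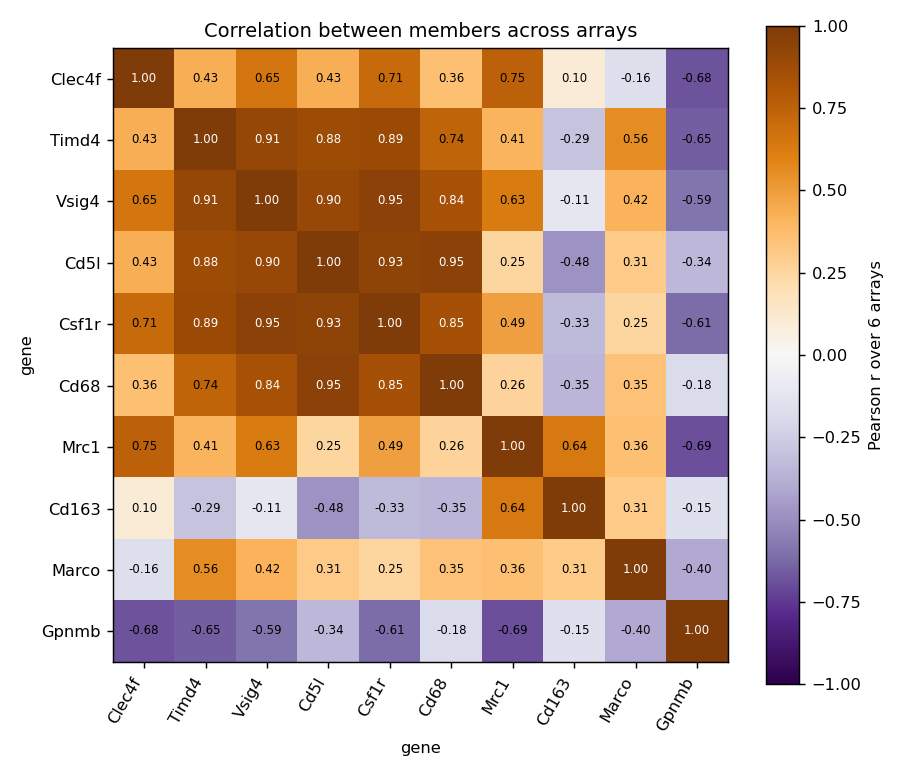
Pearson r between the brightest probes of the 10 genes over the 6 arrays, with genes on both axes and colour from -1 (purple) to 1 (brown). Timd4, Vsig4, Cd5l, Csf1r and Cd68 form a block of values from 0.74 to 0.95, and the Gpnmb row is negative throughout.

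The 5 genes whose probes followed Clec4f most closely over the 6 arrays were Ifitm7 (r = 0.992), Txndc11 (r = 0.989), Nudt11 (r = 0.988), Zfp207 (r = 0.987) and Sec23b (r = 0.986). Of 28499 probes compared, 40 had r above 0.95. With 6 arrays such values are a description of these livers, and none of the 5 genes passed the threshold (adjusted p = 0.491 to 0.659).

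The start-site windows of the marker genes were searched for short words bound by factors of macrophages. PU.1, an ETS factor that all macrophages need, binds sites with the core GAGGAA. MAF factors bind sites with the word TGCTGA, and the E-box CACGTG is bound by MITF and TFE factors. RefSeq windows of GRCm38.p6, from 250 bases before to 50 bases after the start, were found for 9 of the 10 genes (all but Csf1r). Both strands were searched, and 0 matches overlapped. The word GAGGAA, which reads as TTCCTC when its match lies on the opposite strand, occurred in 5 of the 9 windows, against 28.3% of 32851 RefSeq windows. The word TGCTGA, which then reads as TCAGCA in the printed strand, occurred in 4 of 9, against 19.5%. The palindrome CACGTG occurred in 0 of 9, against 7.15%.

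The windows of Vsig4, Timd4, Cd5l and Cd68 are printed because their signals moved together over the arrays; Csf1r, the fifth gene of that block, had none. Capitals mark every match to GAGGAA or TGCTGA on either strand. Each runs 5′ to 3′ on the strand of its gene: chrX:96293389-96293688 (minus strand) for Vsig4, chr11:46810549-46810848 (plus strand) for Timd4, chr3:87357631-87357930 (plus strand) for Cd5l and chr11:69666121-69666420 (minus strand) for Cd68.
Vsig4: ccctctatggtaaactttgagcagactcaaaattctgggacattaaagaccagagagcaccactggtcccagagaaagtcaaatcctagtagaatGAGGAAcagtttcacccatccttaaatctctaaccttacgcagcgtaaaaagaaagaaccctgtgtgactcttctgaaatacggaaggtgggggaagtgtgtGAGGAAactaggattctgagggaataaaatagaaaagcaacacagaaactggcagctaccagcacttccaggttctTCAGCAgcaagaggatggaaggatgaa
Timd4: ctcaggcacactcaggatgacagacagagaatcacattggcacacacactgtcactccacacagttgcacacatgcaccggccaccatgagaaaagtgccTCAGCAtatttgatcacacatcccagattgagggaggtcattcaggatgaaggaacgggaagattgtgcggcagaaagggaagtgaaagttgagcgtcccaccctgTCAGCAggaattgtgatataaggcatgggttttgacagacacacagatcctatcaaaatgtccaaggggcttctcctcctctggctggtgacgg
Cd5l: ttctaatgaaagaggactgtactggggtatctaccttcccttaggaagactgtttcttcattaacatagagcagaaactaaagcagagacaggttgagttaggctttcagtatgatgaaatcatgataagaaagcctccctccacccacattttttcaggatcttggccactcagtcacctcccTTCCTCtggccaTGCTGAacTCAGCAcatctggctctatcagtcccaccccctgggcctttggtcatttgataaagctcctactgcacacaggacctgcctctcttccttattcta
Cd68: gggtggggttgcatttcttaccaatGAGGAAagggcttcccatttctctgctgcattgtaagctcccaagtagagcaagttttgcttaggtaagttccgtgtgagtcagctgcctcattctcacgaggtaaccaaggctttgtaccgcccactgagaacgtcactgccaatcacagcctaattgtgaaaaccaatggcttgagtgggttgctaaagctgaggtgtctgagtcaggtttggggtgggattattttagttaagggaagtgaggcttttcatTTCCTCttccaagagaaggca
Vsig4 had 2 GAGGAA matches and 1 TGCTGA match. Timd4 had 2 TGCTGA matches and no GAGGAA. Cd5l had 1 GAGGAA and 2 TGCTGA matches, the latter on opposite strands with 2 bases between them. Cd68 had 2 GAGGAA matches and no TGCTGA. Among the other members, GAGGAA occurred in the windows of Marco and Mrc1, and TGCTGA in that of Clec4f. A match is a description of letters, not a bound site.

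Other genes of Kupffer cell identity were split between lower and higher. Of 17 such genes, 10 had a lower and 7 a higher MC-LR mean, 0 passed the adjusted threshold, and the median difference was -0.12 against 0.00 over all probes. Their sign turned on single arrays: the median was 0.13 without control 3 (7 of 17 below 0), 0.07 without MC-LR 1 and 0.17 without both (3 of 17), and -0.63 with slide as a block (14 of 17). At an unadjusted p under 0.05, 1 was higher and 1 lower. Slc40a1, the iron exporter ferroportin with which Kupffer cells return iron from red cells to the blood, read 13.06, 13.12 and 13.38 in the controls and 13.64, 13.71 and 13.58 in the MC-LR mice. Its groups did not overlap, and its difference was 0.46 ± 0.12 (adjusted p = 0.265). It was 0.27 with slide as a block and 0.55 without control 3. With array weights, a fit that called 1203 of 28500 probes, it passed, at 0.55 (adjusted p = 0.0373). Cd209f, a C-type lectin, differed by -0.87 ± 0.32 (adjusted p = 0.349) with the groups apart, as for 8.54% of all tested probes with MC-LR lower. It read 5.51, 5.52 and 6.32 in the controls and 4.83, 4.51 and 5.42 in the MC-LR mice. Its difference was -1.40 with slide as a block, -0.60 without control 3 and -0.26 with normexp background correction. Control 3 was the highest array for 12 of the 17 genes.

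Genes shared by mononuclear phagocytes were nearly all highest in control 3. Of 26 genes, 22 had a lower MC-LR mean, with a median difference of -0.33, and 0 passed the adjusted threshold, with 2 lower and 0 higher at an unadjusted p under 0.05. Control 3 was the highest array for 25 of the 26 and MC-LR 1 the lowest for 18. Without control 3 the median was -0.01 (15 of 26 below 0). Without both arrays 5 of 26 were below 0 and the median was 0.15, and with slide as a block the median was -0.92. Sirpa, the receptor for CD47 that restrains phagocytosis, differed by -0.61 ± 0.17 (adjusted p = 0.269) with the groups apart, and by -0.46 without both arrays. The scavenger receptor Msr1 differed by -0.42 ± 0.17 (adjusted p = 0.377) with the groups apart. The complement gene C1qa differed by -0.47 ± 0.28 (adjusted p = 0.518), and by -0.01 without both arrays. With slide as a block Sirpa, Msr1 and C1qa differed by -0.87, -0.72 and -0.99. Without control 3 these were -0.49, -0.28 and -0.22.

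Gpnmb was set beside the other genes of monocytes and of recruited or lipid-associated macrophages. Of 20 such genes, 18 were tested, 12 had a lower and 6 a higher MC-LR mean, the median difference was -0.19, and 0 passed. This direction depended on control 3: without it the median was 0.10 (8 of 18 below 0), and with slide as a block it was -0.67 (16 of 18). Cd9, a tetraspanin of lipid-associated macrophages, differed by -0.65 ± 0.26 (adjusted p = 0.383), and the lipase gene Lpl by -1.35 ± 0.61 (adjusted p = 0.418). Fabp5, a fatty acid binding protein, was well above background on 3 MC-LR and 0 control arrays. It was thus kept through the MC-LR group alone, and no fold or p-value is given. Fabp5 counts among the 6 higher genes. With the filter on all 6 arrays 12 genes of the list were still lower, with a median of -0.22. Trem2, a lipid receptor of these macrophages that was picked after its values were seen, differed by 0.23 ± 0.28 (adjusted p = 0.752).

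The signals that maintain Kupffer cells were also measured. Of 9 growth factor and niche genes, 4 were lower and 5 higher with MC-LR, with a median of 0.00, and 0 passed. The median was 0.16 without control 3 and -0.20 with slide as a block (8 of 9 below 0). The Csf1r ligands Csf1 and Il34, added after their values were seen, differed by -0.14 ± 0.27 (adjusted p = 0.856) and 0.15 ± 0.37 (adjusted p = 0.895). Bmp10, a ligand of the endothelial receptor ALK1, read 4.84, 5.14 and 5.03 in the controls and 5.59, 5.50 and 5.41 in the MC-LR mice. Its groups did not overlap, with a difference of 0.50 ± 0.12 (adjusted p = 0.248), and it passed with array weights, at 0.58 (adjusted p = 0.049). Notch1, a receptor of the Notch pathway, differed by -0.57 ± 0.20 (adjusted p = 0.338) with the groups apart. It was -0.20 with slide as a block, and it passed with array weights, at -0.80 (adjusted p = 0.0474). Bmp10 and Notch1 were thus among 1203 of 28500 probes that passed with array weights. Its ligand gene Dll4 differed by 0.39 ± 0.30 (adjusted p = 0.616).

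Inflammatory genes were also nearly all highest in control 3. Of 13 inflammatory genes 11 were tested, 9 had a lower MC-LR mean and 0 passed. The median of -0.34 became -0.14 without control 3 (6 of 11 below 0) and -1.66 with slide as a block. Some of the 9 lower genes were kept by the filter through 1 group alone. With the filter on all 6 arrays 7 genes were below 0, with a median of -0.34. Control 3 was the highest array for 10 of the 11, and the list's median deviation there was 1.40. The monocyte chemokine gene Ccl2 stood at 12.56 in control 3, 1.95 above the mean of the other two controls, and differed between groups by -1.02 ± 0.56 (adjusted p = 0.489). This was -0.37 without control 3 and -2.32 with slide as a block. The cytokine gene Il6 differed by -0.64 ± 0.37 (adjusted p = 0.51), and the costimulatory gene Cd86 by -0.40 ± 0.20 (adjusted p = 0.454). Of 12 genes of alternative activation 9 were tested, 7 were lower and 2 higher, with a median of -0.15, and 0 passed. The median was -0.11 without control 3 and -0.56 with slide as a block. Mgl2, a C-type lectin, differed by 0.65 ± 0.25 (adjusted p = 0.367) with the groups apart, and Arg1, which hepatocytes express strongly, by 0.22 ± 0.14 (adjusted p = 0.554). Il10, which encodes an anti-inflammatory cytokine, was well above background on only 1 control array. It was thus kept through the MC-LR group alone, and no fold or p-value is given. Il10 counts among the 7 lower genes. With the filter on all 6 arrays 6 genes of alternative activation were lower, with a median of -0.14.

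**Figure D4:**
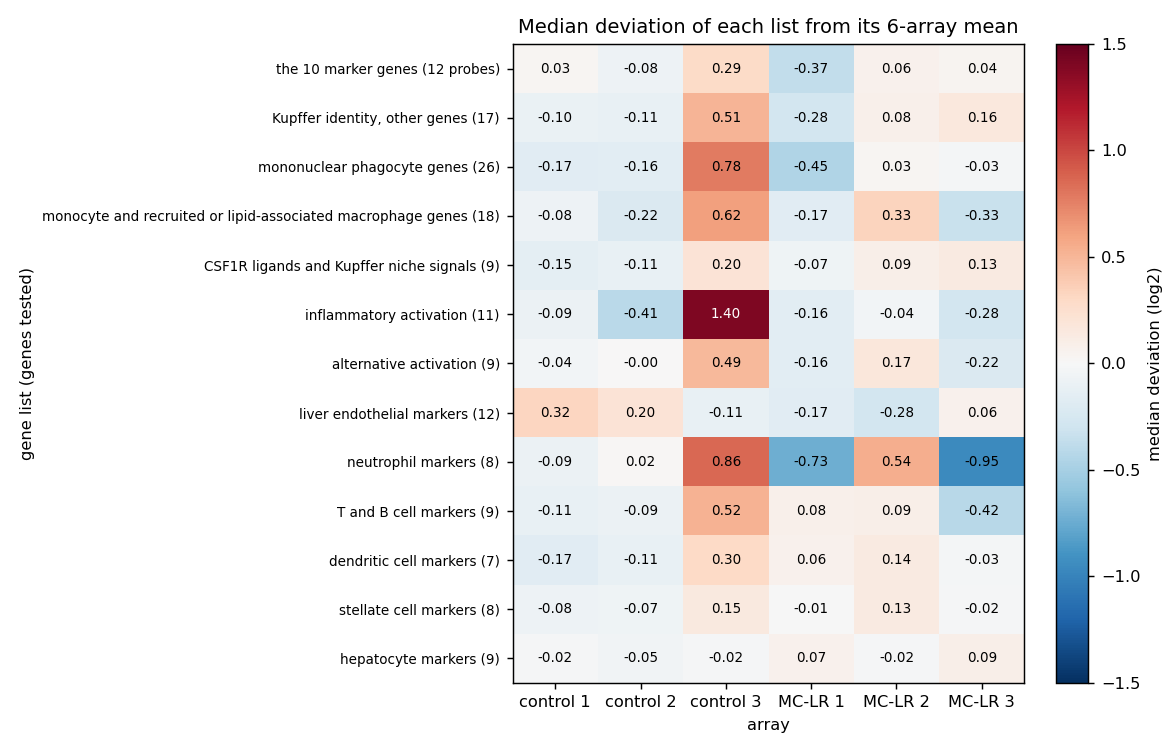
Median deviation (log2, colour and number) of each gene list from the mean of the 6 arrays, with lists as rows and arrays as columns. Control 3 stands at 0.29 for the 10 markers, 0.78 for phagocyte genes and 1.40 for inflammatory genes, and MC-LR 1 at -0.37 and -0.45 for the first pair of these lists.

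Markers of other liver cells were also read, and their part in the macrophage results was not tested. All 12 endothelial genes had a lower MC-LR mean, with a median of -0.35 and 0 called. Pecam1, the platelet endothelial adhesion molecule, differed by -0.54 ± 0.10 (adjusted p = 0.216). It passed with array weights (-0.58, adjusted p = 0.0371), as did 1203 of 28500 probes in all. The endothelial cadherin gene Cdh5 differed by -0.44 ± 0.14 (adjusted p = 0.316), and Stab2, a scavenger receptor of sinusoidal endothelium, by -0.30 ± 0.16 (adjusted p = 0.464). With slide as a block the endothelial median was -0.07 (6 of 12 below 0), and without control 3 it was -0.43 (10 of 12). The log2 of the summed endothelial signal was 15.07 to 15.63 in controls and 14.93 to 15.33 with MC-LR. Mrc1, which endothelium shares, differed by -0.10 as given above.

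Of 11 neutrophil genes 8 were tested and all 8 had a lower MC-LR mean, with a median of -0.51 and 0 called. Without control 3 it was 6 of 8 with a median of -0.24, without control 3 and MC-LR 1 it was 4 of 8 with -0.04, and the slide block gave -1.21. The summed neutrophil signal was 12.95 to 13.70 in controls and 11.81 to 13.27 with MC-LR. S100a9, a calcium-binding protein abundant in neutrophils, differed by -0.95 ± 0.41 (adjusted p = 0.405), and its partner S100a8 by -0.76 ± 0.42 (adjusted p = 0.495). Csf3r, the receptor for granulocyte colony-stimulating factor, differed by -0.45 ± 0.24 (adjusted p = 0.476). The 9 T and B cell genes had a median of -0.12, which turned to 0.18 without control 3 (2 of 9 below 0) and to 0.23 with array weights, and was -0.60 with slide as a block. Their summed signals were 10.69 to 11.86 in controls and 10.53 to 11.36 with MC-LR. Cd3e, a chain of the T cell receptor complex, differed by 0.19 ± 0.15 (adjusted p = 0.616). The 7 dendritic cell genes had a median of -0.05, the 8 stellate cell genes 0.03 and the 9 tested hepatocyte genes 0.01, with 0 called in each. In the same order these were 0.05, 0.09 and 0.12 without control 3, and -0.16, -0.05 and 0.01 with slide as a block. The summed hepatocyte signal was 19.55 to 19.68 in controls and 19.47 to 19.60 with MC-LR.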

How the data were processed

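Liver RNA of 3 control and 3 MC-LR mice was read on 6 single-colour arrays. Per the file headers, spot intensity values come from Agilent Feature Extraction 10.7.3.1 (10.7 in the submitters' processing notes). The authors deposited log2 values, quantile normalized between arrays per the series' design text. Against log2 of the same array's processed signal their r was 0.99822 to 0.99995. They have a median of 5.9356 in every column. A higher value means more signal.

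Each probe was a feature. A probe was kept where each array of 1 or both groups had it well above background, which left 28500 of 41174. The 2 groups were tested two-sided by limma 3.58.1 under R 4.3.3, using lmFit followed by eBayes. The residual degrees of freedom were 4 and the prior ones 2.18. Benjamini-Hochberg adjustment ran over all 28500 probes, and each ± after a difference is its SE. The steps were tested on simulated data. Precision is limited by the 3 arrays per group. The slide of an array was read from its header; it is also the scan.

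Members and lists were chosen with earlier results of these data known. All members are named. Of each other list the 3 genes with the smallest unadjusted p are named, unless said otherwise, together with defining genes of liver cell types, and a listed gene is read from its brightest probe. A few named items are left out and not reported here. Ly6g and 1 hepatocyte gene had no probe under their names and are not analysed here. Alternatives were other scalings and background corrections, other filters on dim probes, slide blocks, the replicate number as a block, array weights, trend and robust options, 1 probe per gene and each array left out. A fit without control 3 and MC-LR 1 was added after seeing the data. The labels do not say whether the shared numbers 1 to 3 pair the mice, and the main fit did not pair them. Deviations of same-numbered arrays correlated at 0.169, -0.304 and -0.176, which cannot settle it with 3 arrays per group. Exon annotation of mm9 was not used here.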

Additional observations from a re-analysis of the deposited data

How the results depend on the processing

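Over 20 alternative fits, 217 of 238 values of the member probes kept their direction and their side of the threshold, 20 changed sign and 1 passed the threshold, Gpnmb with array weights (adjusted p = 0.0407), which raised the count of member probes called from 0 to 1. Array weights gave control 3 the lowest weight, 0.279. The cause of these changes, the Gpnmb pass included, was not tested. Cd68 turned to 0.01 with median scaling and with normexp, 0.02 with array weights, 0.17 without control 3, 0.17 without MC-LR 1 and 0.36 without both. Marco turned to 0.42 with array weights, 0.71 without control 3, 0.60 without MC-LR 2 and 0.78 without control 3 and MC-LR 1. Cd5l turned to 0.05 without control 3 and 0.26 without both, Vsig4 to 0.11 without both, and Mrc1 to 0.00 without MC-LR 1. Of the Csf1r probes, A_51_P365885 turned to 0.02 and A_52_P602091 to 0.04 without both, and A_52_P570471 to 0.01 without MC-LR 1 and 0.11 without both. Cd163 turned to -0.18 with array weights and -0.31 without MC-LR 3. The median over the member probes turned from -0.17 to 0.11 without both. Leaving out each array in turn, the differences ran from -0.17 to 0.17 for Cd68, -1.03 to 0.71 for Marco, -0.37 to -0.04 for Vsig4, -0.43 to 0.05 for Cd5l, -0.31 to 0.83 for Cd163 and -0.22 to 0.00 for Mrc1. For Csf1r they ran from -0.33 to -0.09, -0.27 to 0.01 and -0.25 to -0.02 at A_51_P365885, A_52_P570471 and A_52_P602091, and the median over member probes ran from -0.27 to -0.01. The number of all probes called, 3 with limma, was 1 with 75th percentile scaling, with median scaling and with the filter on all 6 arrays, 13 with slide as a fixed block, 0 on slide 2 alone (3322 at an unadjusted p under 0.05), 1203 with array weights and 5 at an adjusted p under 0.10. An unadjusted p gave 3684. Leaving out 1 array gave 1 to 70 calls, with 70 without control 3 and 1 without MC-LR 1, and leaving out both gave 4. With the replicate number as a block 0 probes were called (2875 at an unadjusted p under 0.05), and no call on a member changed. Not every array correlated best with the one of its own number (highest r, 0.346, between control 3 and MC-LR 2).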
